A study of Mus musculus with 56 samples.

Results

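Brain endothelial and barrier genes were followed around the day in the anterior hypothalamus of mice that could eat only by day or only by night. The set holds 10 of the 17564 genes in the deposited table: Emcn, Cd93, Cldn5, Pecam1, Slc2a1, Slco1a4, Abcb1a, Tek, Flt1 and Tjp1. The genes were listed by name, and Emcn was in addition chosen by its measured values, because its peak time moved by more than 8 h between the feeding regimens. The rhythm of Emcn, its rhythm difference and its difference at single hours are therefore given as a description with no test. Its mean over the day and its ZT24 against ZT0 difference were not the criterion, but they rest on the same values. Their tests are therefore not independent of the choice. They were run, as for the other 9 members, among all transcripts.

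The tissue came from 56 female C57BL/6J mice, 9 weeks old, with 28 on each regimen for 7 days. Daytime-restricted feeding (DRF) gave food from lights on, zeitgeber time (ZT) 0, to lights off at ZT12, and nighttime-restricted feeding (NRF) gave food through the dark period. In each regimen 4 mice were taken every 4 h from ZT0 to ZT24, 7 time points, which makes 14 groups, and the mice at ZT24 were other animals than those at ZT0. All groups shared strain, sex, age and light cycle, and no mouse had free access to food. RNA was taken from a whole dissected block that holds vessels, glia and several hypothalamic nuclei, so fewer vessel cells and less RNA per vessel cell cannot be told apart.

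Endothelial cells line the vessels of the brain and form the blood-brain barrier. Tight junctions between neighbouring cells close the paracellular route, and transporters in the cell membrane carry glucose and other nutrients in and push many drugs and metabolites out. Wnt ligands from neural cells and angiopoietin and VEGF receptors on the vessel wall maintain this state. Cldn5 forms the strands of the tight junction, Tjp1 is the scaffold under it and Pecam1 is an adhesion molecule of endothelial contacts. Slc2a1 is the barrier's glucose transporter GLUT1, Slco1a4 carries organic anions and Abcb1a is the efflux pump P-glycoprotein. Tek is the angiopoietin receptor TIE2, Flt1 is VEGF receptor 1, Cd93 is a lectin-like receptor of the endothelial surface and Emcn is a mucin-like glycoprotein of capillary and venous endothelium. Slc2a1 and Tjp1 are also made by other brain cells.

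Levels are read counts scaled to library size (CPM, per 1e6 reads) recovered from the deposited values, and differences are on the scale of log2(CPM + 1), which understates the change of low genes. The normalized libraries held 29591266 to 34493344 reads, and the members had between 153 reads (Emcn, lowest mouse) and 4740 reads (Slc2a1, highest mouse). All 10 members and the 20 other endothelial genes examined were above 0 in every mouse, and the correlation across genes between mice of the same group was 0.984 to 0.998. At DRF ZT16, replicates 3 and 4 stand apart: trends with transcript length, GC content and level took 44.9% and 58.1% of their variance around the mean of all libraries, against 0.510 to 24.8% in the other libraries. Calls of members that change without them are given both ways. Abcb1a resolved into hundredths of a read and not into whole reads, and it may share reads with its paralog Abcb1b, so its level is uncertain.

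The promoters of Emcn and Cldn5 are shown because Emcn has the shifted peak and Cldn5 the largest amplitude of the set. Both run from 250 bases before the RefSeq start to the base before it, 5′ to 3′ on the gene's plus strand in GRCm38.p6, and capitals mark matches to the motifs searched.
Emcn, chr3:137340828-137341077: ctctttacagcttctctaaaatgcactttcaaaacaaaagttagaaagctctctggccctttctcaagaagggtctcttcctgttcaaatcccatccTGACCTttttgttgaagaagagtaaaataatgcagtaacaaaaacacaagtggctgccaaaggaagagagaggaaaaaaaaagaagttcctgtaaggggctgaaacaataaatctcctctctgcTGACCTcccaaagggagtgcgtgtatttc
Cldn5, chr16:18776597-18776846: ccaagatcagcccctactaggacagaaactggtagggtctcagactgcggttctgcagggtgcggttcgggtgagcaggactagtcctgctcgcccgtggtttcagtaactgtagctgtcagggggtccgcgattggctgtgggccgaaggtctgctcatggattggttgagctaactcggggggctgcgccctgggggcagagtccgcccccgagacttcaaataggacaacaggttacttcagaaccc

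The motifs were the E-box CACGTG, the D-box TTATGNAA, the ROR element AGGTCA and the ETS core CCGGAA, each searched on both strands. Emcn held AGGTCA on the minus strand, read as TGACCT above, with first bases at -153 and -29. The element was found in 13.8% of the 27025 promoters of that length, the E-box in 6.05%, the D-box in 3.23% and the ETS core in 12.2%. None of the 4 motifs was found in this window of the other 7 members with a promoter in the table (Cldn5, Slc2a1, Slco1a4, Abcb1a, Tek, Flt1 and Tjp1). The RefSeq windows of Abcb1a (chr5:8566841-8567090) and Tjp1 (chr7:65371245-65371494) lie far from the gene starts in the GENCODE vM21 annotation, 8660077 and 65527781. Sequence before those starts was not searched. For Emcn, Slc2a1 and Slco1a4 the RefSeq and GENCODE starts also differ, by much less. The members Cd93 and Pecam1 have no entry. The Emcn window is 40.8% G or C and the Cldn5 window 59.6%. A match to these letters is a description of the window, not a binding site.

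The genes lie on chromosomes 2 (Cd93), 3 (Emcn), 4 (Slc2a1 and Tek), 5 (Abcb1a and Flt1), 6 (Slco1a4), 7 (Tjp1), 11 (Pecam1) and 16 (Cldn5). Emcn spans chr3:137341067-137432185 on the plus strand of GRCm38 in the GENCODE vM21 annotation, and Cldn5, with a single exon of 1416 bases, spans chr16:18776847-18778262 on the plus strand. Flt1 has the longest union of exons with 13504 bases, and its gene is chr5:147561604-147726011 on the minus strand.

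Per kilobase of exon, the glucose transporter was the most abundant member. Slc2a1 had 30.9 ± 3.75 CPM per kb (mean ± SD over 56 mice), Cldn5 17.3 ± 3.82 and Tjp1 13.6 ± 1.18. The drug and anion carriers followed, with Slco1a4 at 7.28 ± 0.921 and Abcb1a at 6.12 ± 0.634 CPM per kb. The receptor and adhesion genes came next, with Flt1 at 3.34 ± 0.403, Pecam1 at 3.26 ± 0.289, Tek at 2.78 ± 0.281, Cd93 at 1.31 ± 0.218 and Emcn at 1.27 ± 0.195. Neighbours in this order whose ranges over all mice did not touch were Tjp1 and Slco1a4, Abcb1a and Flt1, and Tek and Cd93. Within the same mouse, Slc2a1 was above Cldn5 in 56 of 56, Cldn5 above Tjp1 in 48, Slco1a4 above Abcb1a in 53 and Pecam1 above Tek in 54. Flt1 was above Pecam1 in only 29 of 56 mice and Cd93 above Emcn in 32, so neither pair is ordered beyond its spread.

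The values that chose Emcn are these. In DRF, the level was highest at the end of the light and feeding period and lowest at the end of the dark. The 4 mice at DRF ZT12 had 6.94, 7.26, 7.27 and 8.33 CPM, and those at DRF ZT24 had 5.07, 5.21, 5.41 and 6.12 CPM. In NRF, the 4 mice at ZT0 had 7.58, 7.91, 8.83 and 9.52 CPM and those at ZT8 had 5.08, 5.83, 6.47 and 6.88 CPM. So the highest and lowest groups of each regimen did not overlap, and the NRF peak fell near the DRF trough. Here and for the members below, such groups were picked as the extremes of 7 time points. Their separation is a description and no test, and its share over all transcripts was not counted. The extremes were also apart for Pecam1 and Tek in DRF, where the main test called no rhythm. A 24-h cosine on the deposited values peaked at ZT10.1 in DRF and ZT20.8 in NRF, a shift of 10.7 h. On log2(CPM + 1) the shift was -10.9 ± 1.204 h (DRF minus NRF, SE), with similar amplitudes of 0.18 ± 0.04 in DRF and 0.15 ± 0.04 in NRF. With a replicate number or ZT16 left out, the DRF peak stayed between ZT9.66 and ZT10.5 and the NRF peak between ZT20.5 and ZT21.5. The phase that JTK_CYCLE, a rank test for rhythm, gives was ZT10.3 in DRF and ZT0 in NRF. The members next to the 8 h limit were Flt1, with a shift of 8.18 h just inside it, and Tjp1, with 7.64 h just outside. Slco1a4, with 11.98 h, was also past it. The DRF peaks of these 3 genes are poorly placed.

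Hour by hour, the difference in Emcn lay in the late dark and at dawn. At ZT20 the DRF mice had 5.07, 5.53, 5.73 and 6.19 CPM and the NRF mice 7.02, 7.56, 8.24 and 8.37 CPM. At ZT0 the DRF mice had 4.98, 5.76, 6.00 and 6.14 CPM, all below the NRF mice given above. Both groups were also apart at ZT24, where NRF mice had 6.69, 7.13, 7.17 and 7.84 CPM. The DRF minus NRF difference was -0.49 at ZT0, -0.41 at ZT20 and -0.35 at ZT24 on log2(CPM + 1), each with an SE of 0.09. At ZT4, ZT8, ZT12 and ZT16 the groups overlapped, with differences of -0.06, 0.16, 0.13 and -0.18.

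**Figure D1:**
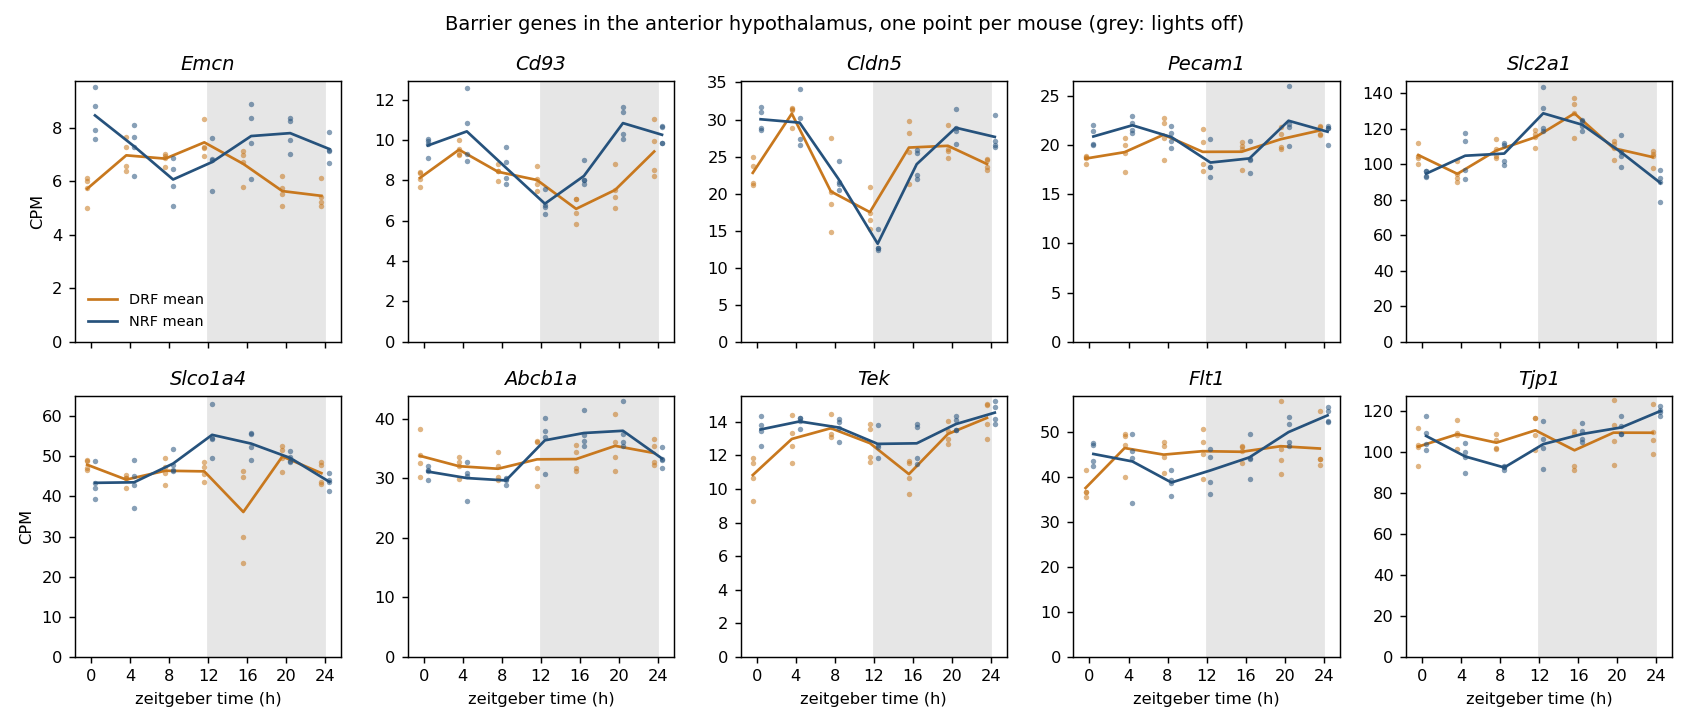
CPM of each member (y axes, from 0) against zeitgeber time in hours (x axes), with 1 point per mouse and lines through the means of 4 mice in DRF (orange) and NRF (blue), grey marking lights off. Emcn is highest at ZT12 in DRF and at ZT0 in NRF, Cldn5 dips at ZT12 in both, Slc2a1 is highest at ZT12 to ZT16 in both, and Slco1a4 drops at DRF ZT16 through 2 mice.

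In NRF, a daily rhythm was called for 9 of the 9 members tested, where 31.0% of the 16245 transcripts tested were called. In DRF it was called for 2 of 9, Cd93 and Slc2a1, where 1.08% of transcripts were called. The calls combine JTK_CYCLE and the Lomb-Scargle periodogram at a Benjamini-Hochberg adjusted p under 0.05 within a regimen. Tjp1 was picked by the study as a rhythmic gene on these same libraries, so its call is not independent evidence. Without Emcn, the members' median amplitude on log2(CPM + 1) was 0.18 under NRF and 0.08 under DRF, and it was larger in NRF for 8 of 9 members. Over all transcripts the medians were 0.07 and 0.06, and the NRF amplitude was larger for 10036 of 16239.

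Among the junction genes, Cldn5 had the widest rhythm of the set. At NRF ZT12 the 4 mice had 12.4, 12.6, 12.7 and 15.2 CPM, and at NRF ZT0 they had 28.6, 28.9, 31.0 and 31.7 CPM. The lowest NRF group thus lay at the start of the dark and of feeding, and the highest group mean was 2.27 times the lowest. In DRF, Cldn5 was also lowest at ZT12, with 15.2, 16.5, 17.4 and 20.9 CPM, and highest at ZT4, with 28.9, 31.3, 31.4 and 31.6 CPM. The combined test called the NRF rhythm (adjusted p = 3.95e-07, amplitude 0.43 ± 0.06) and not the DRF rhythm (adjusted p = 0.648, amplitude 0.19 ± 0.06). The DRF call depends on ZT16 and on library trends: the adjusted p was 0.0426 without ZT16 and 0.00276 with those trends removed. Peak times were close, ZT23.6 in NRF and ZT23.0 in DRF.

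Tjp1 ranged less and was rhythmic in NRF (adjusted p = 4.51e-05, amplitude 0.15 ± 0.03, peak ZT20.0). Its NRF groups went from 91.1, 92.8, 93.0 and 93.1 CPM at ZT8 to between 118 and 123 CPM at ZT24, with no overlap. In DRF its amplitude was 0.02 ± 0.03 (adjusted p = 1) and group means ran from 101 to 111 CPM. The lowest of these, ZT16, holds the 2 libraries that stand apart, at 91.1 and 93.2 CPM, and the other 2 mice averaged 109.8 CPM. Pecam1 was called in NRF (adjusted p = 9.72e-04, amplitude 0.11 ± 0.03), though not without ZT16 (adjusted p = 0.0586). Its highest NRF group, ZT20, averaged 22.5 ± 2.57 CPM and its lowest, ZT12, 18.2 ± 1.66 CPM, and these overlapped. In DRF the amplitude of Pecam1 was 0.01 ± 0.03.

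The glucose transporter kept its evening peak in both regimens. In NRF, Slc2a1 was lowest at ZT24, with 78.7, 90.2, 92.6 and 96.7 CPM, and highest at ZT12, where the mean was 129 ± 11.5 CPM. In DRF it was lowest at ZT4, with a mean of 94.7 ± 4.97 CPM, and highest at ZT16, with 129 ± 9.999 CPM, or 124 CPM in the 2 mice other than the libraries that stand apart. In both regimens the highest and lowest groups were apart. The rhythm was called in NRF (adjusted p = 2.12e-05, peak ZT13.7) and DRF (adjusted p = 3.50e-04, peak ZT15.6), the latter not without replicate 4 (0.0592) or ZT16 (0.181). The DRF peak was 2.21 ± 0.793 h later on log2(CPM + 1).

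Slco1a4 was rhythmic in NRF (adjusted p = 1.18e-05, amplitude 0.18 ± 0.04). Its NRF mice had 49.5, 54.3, 54.6 and 63.0 CPM at ZT12 and 39.3, 42.1, 43.4 and 48.8 CPM at ZT0. In DRF, ZT16 held the lowest mean, with 23.5, 29.8, 44.9 and 46.3 CPM, and the lower pair are the libraries that stand apart, replicates 4 and 3. All other DRF groups lay between 42.2 and 52.6 CPM. The DRF cosine peaked at ZT2.52 with all mice, at ZT18.6 without those libraries and at ZT17.9 without ZT16, so the size of the shift rests on them. Abcb1a was rhythmic in NRF (adjusted p = 4.34e-05, amplitude 0.20 ± 0.03, peak ZT17.1), from 29.6 ± 0.533 CPM at ZT8 to 38.0 ± 3.43 CPM at ZT20. In DRF its group means ran from 31.6 to 35.5 CPM, with an amplitude of 0.07 ± 0.03.

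The receptors differed among themselves. Cd93 was rhythmic in both regimens (adjusted p = 1.01e-05 in NRF and 5.83e-04 in DRF, amplitudes 0.23 ± 0.03 and 0.20 ± 0.04). The DRF call was lost without replicate 1 (0.207) and without ZT16 (0.498). In NRF it was highest at ZT20, with 10.04, 10.3, 11.4 and 11.6 CPM, and lowest at ZT12, with 6.33, 6.67, 6.79 and 7.59 CPM. In DRF it was highest at ZT4, with 9.26, 9.29, 9.56 and 9.99 CPM, and lowest at ZT16, with 5.86, 6.38, 7.06 and 7.06 CPM. Its trough thus lay about a sampling interval later under DRF, and neither pair of groups overlapped.

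Flt1 was rhythmic in NRF (adjusted p = 3.54e-05, amplitude 0.18 ± 0.04, peak ZT21.1), from 35.7, 38.6, 39.4 and 41.5 CPM at ZT8 to 52.3, 52.5, 54.7 and 55.7 CPM at ZT24. In DRF its amplitude was 0.05 ± 0.04, and the lowest group was ZT0 with 35.5, 36.6, 36.8 and 41.5 CPM. Tek had the weakest NRF call (adjusted p = 0.0208), with an amplitude of 0.08 ± 0.03 in NRF and 0.08 ± 0.04 in DRF. Its NRF call was lost without any replicate number (adjusted p between 0.0854 without replicate 4 and 0.495 without replicate 2, 0.0955 without replicate 3 and 0.189 without replicate 1).

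**Figure D2:**
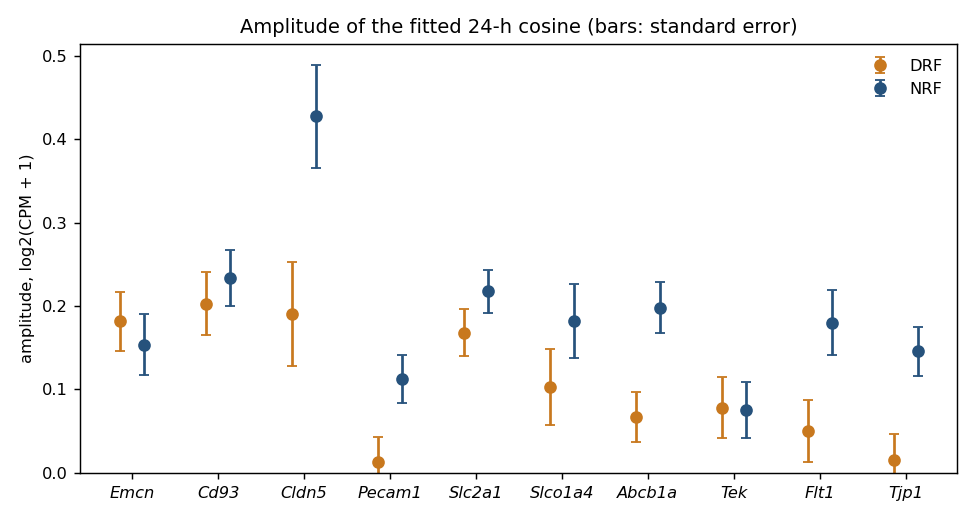
Amplitude of the 24-h cosine on log2(CPM + 1) (y axis, from 0) for each member (x axis) in DRF (orange) and NRF (blue), with bars of 1 SE, each from 28 mice per regimen. The NRF amplitude is the larger for every member but Emcn and Tek, and Cldn5 in NRF is highest at 0.43.

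Calls made regimen by regimen do not test a difference, so limma compared the fitted cosines of DRF and NRF in an F test over all 56 mice. The rhythm differed for 5 of 9 members, where 10.9% of 16239 transcripts were called. Tjp1, among the 5, was shown by the study on these libraries as rhythmic in NRF but not in DRF. Its call here is therefore not independent evidence either. Slco1a4 had the largest difference with all mice (0.28 ± 0.06 on log2(CPM + 1), the distance between the fitted cosines, adjusted p = 0.00570). Without the 2 libraries that stand apart its difference was 0.17 (adjusted p = 0.00153), below those of Cd93 and Flt1, each 0.22. Cd93 differed by 0.23 ± 0.05 (adjusted p = 0.00707), with a DRF peak 4.18 ± 0.911 h later and an amplitude difference of only -0.03 ± 0.05. Flt1 (0.22 ± 0.05, adjusted p = 0.0169), Tjp1 (0.16 ± 0.04, 0.0278) and Abcb1a (0.16 ± 0.04, 0.0295) also differed, and their amplitudes in DRF minus NRF were -0.13 ± 0.05, -0.13 ± 0.04 and -0.13 ± 0.04. The test did not reach the threshold for Slc2a1 (adjusted p = 0.0657), Cldn5 (0.119), Pecam1 (0.186) and Tek (0.524).

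Each of these 5 calls was lost with at least 1 replicate number left out, which removes 14 of the 56 mice. Slco1a4 was lost without replicate 3 (adjusted p = 0.0812). Without replicates 1, 3 and 4 in turn, Flt1 had adjusted p = 0.0556, 0.248 and 0.0726, Tjp1 0.128, 0.164 and 0.0772, and Abcb1a 0.0554, 0.251 and 0.276. Cd93 had 0.0520, 0.0892 and 0.121 without replicates 1, 2 and 3. Abcb1a also passed the threshold no longer without ZT16 (0.131) or without the 2 libraries (0.101). With a replicate number left out, the size of the difference stayed between 0.23 and 0.33 for Slco1a4, 0.20 and 0.28 for Cd93, 0.19 and 0.25 for Flt1, 0.14 and 0.18 for Tjp1, and 0.12 and 0.19 for Abcb1a. Calls over all transcripts fell as well, from 1768 to 918, 430 and 764 without replicates 1, 3 and 4.

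**Figure D3:**
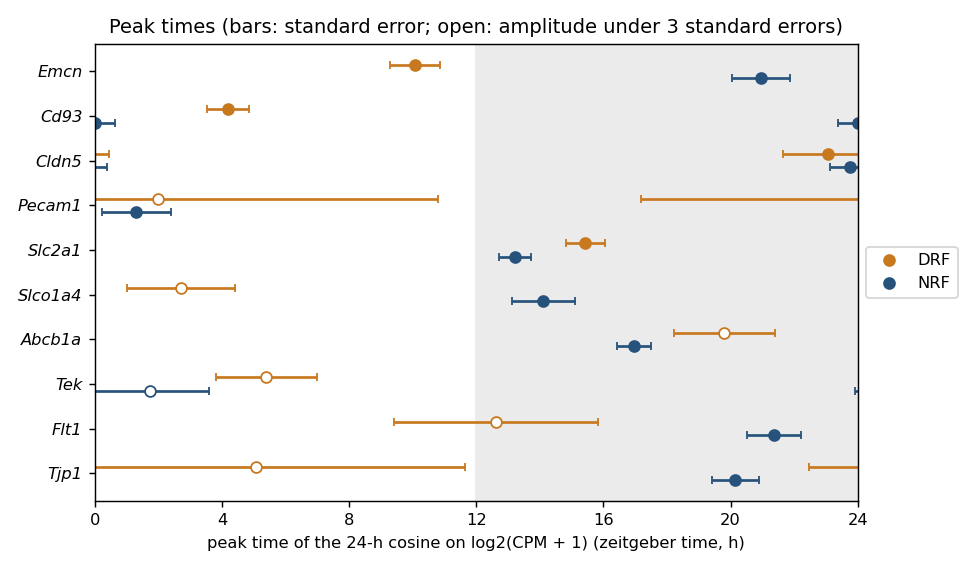
Peak time of the 24-h cosine on log2(CPM + 1) (x axis, zeitgeber time in hours, wrapping at 24 h) for each member (y axis) in DRF (orange) and NRF (blue), with bars of 1 SE, open points where the amplitude is under 3 SE and grey marking lights off. Emcn, chosen for its shift, Cd93 and Slc2a1 have narrow bars that do not meet, while the DRF peaks of Pecam1, Tjp1 and Flt1 span many hours.

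Averaged over the day, 3 of 10 members were lower in DRF, or 2 of 9 without Emcn, where 4.87% of transcripts were called lower. Emcn had 6.39 ± 0.862 CPM in 28 DRF mice and 7.32 ± 1.04 CPM in 28 NRF mice (-0.17 ± 0.03, limma, adjusted p = 0.00151, and 0.0590 without replicate 1). Cd93 had 8.24 ± 1.16 and 9.28 ± 1.55 CPM (-0.15 ± 0.03, adjusted p = 0.00164) and was called under all 14 alternatives tried. Tek had 12.7 ± 1.51 and 13.6 ± 0.911 CPM (-0.10 ± 0.03, adjusted p = 0.00915), with 0.0753 without replicate 1 and 0.0718 without replicate 4. The mice of the regimens overlapped for each of these genes, since the spread includes the hours. The mean weights the 7 time points equally, so dawn enters as both ZT0 and ZT24. For Emcn, chosen by its peak times, this test is therefore not independent of the choice. No member was called higher in DRF, and Slc2a1, with 109 ± 11.2 CPM in DRF and 108 ± 14.98 CPM in NRF, differed by 0.03 ± 0.02.

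At single hours, 6 of the 63 comparisons of the 9 members passed the test, all of them lower in DRF. The most were at ZT16, with 3 of 9 where 13.4% of transcripts were called lower in DRF. At ZT0 it was 2 of 9, where 2.09% were called lower, and at ZT20 1 of 9, where 0.597% were called lower. At ZT4, ZT8, ZT12 and ZT24 limma called 0 of 9 members, where it called 3.90%, 0.172%, 1.48% and 0.283% of transcripts in either direction. At an unadjusted p under 0.05 those hours held 3, 2, 4 and 2 members, and limma-voom on the recovered reads called 0 as well. The 0 at ZT12 depends on the setting. There limma called 2 of 9 without the 2 DRF ZT16 libraries that stand apart and 2 without ZT16. It called 1 without replicate 1, 1 with log2(CPM + 0.1) and 1 with log2(value + 1) of the deposited values. With library trends removed it called 1, as it did with the mean of 20 other endothelial genes as a covariate. The shares of all transcripts under these settings are not given here. Cldn5 at ZT12 was higher in DRF and close to the threshold with all mice (0.37 ± 0.10, limma, adjusted p = 0.0516).

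The 2 calls at ZT0 were Cldn5, of the tight junction, and Tek, the angiopoietin receptor. Cldn5 had 21.1, 21.5, 23.7 and 24.9 CPM in DRF, all below the NRF mice at 28.6 to 31.7 CPM (-0.38 ± 0.10, limma, adjusted p = 0.0216). It was lost without replicate 2 (0.0807), 3 (0.187) and 4 (0.0893). Tek at ZT0 had 9.29, 10.6, 11.5 and 11.9 CPM in DRF against 12.6, 13.4, 13.8 and 14.3 CPM in NRF (-0.30 ± 0.07, adjusted p = 0.00477), with no overlap, and 0.0967 without replicate 1 and 0.0888 without replicate 3. Flt1, Cd93 and Pecam1 did not overlap at ZT0 either, with -0.26 ± 0.09, -0.23 ± 0.08 and -0.16 ± 0.07, but did not pass the test (adjusted p = 0.0974, 0.0853 and 0.205). Slc2a1 did not overlap at ZT0 in the other direction, higher in DRF by 0.15 ± 0.06 (adjusted p = 0.198). Tjp1 overlapped (-0.07 ± 0.07, adjusted p = 0.654), as did Slco1a4 (0.14 ± 0.10, 0.510) and Abcb1a (0.11 ± 0.08, 0.497). How often groups of 4 mice do not overlap over all transcripts was not counted. At ZT24, the same hour in other mice, the difference was -0.20 for Cldn5, -0.03 for Tek, -0.12 for Cd93 and 0.01 for Pecam1. It was -0.22 for Flt1 and 0.22 for Slc2a1, and none of these was called.

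In the dark, Cd93 differed at ZT20, where the DRF mice had 6.61, 7.17, 7.53 and 8.80 CPM and the NRF mice 10.04 to 11.6 CPM (-0.48 ± 0.08, adjusted p = 8.13e-04, and 0.0644 without replicate 3). At ZT16 Cd93 had 5.86 to 7.06 CPM in DRF and 7.82 to 9.02 CPM in NRF (-0.28 ± 0.08, adjusted p = 0.0123). Slco1a4 at ZT16 was apart as well, with NRF mice at 49.0 to 55.8 CPM (-0.60 ± 0.10, adjusted p = 6.30e-04). Tek at ZT16 had 9.68 to 11.7 CPM in DRF and 11.5 to 13.9 CPM in NRF, which overlap (-0.21 ± 0.07, adjusted p = 0.0279). Without the 2 DRF libraries that stand apart, the differences at ZT16 were -0.26 for Cd93 (adjusted p = 0.297), -0.22 for Slco1a4 (0.267) and -0.12 for Tek (0.608), so none of the 3 calls at that hour held with only 2 DRF mice left. Leaving out replicate 3 or replicate 4 alone also ended each: Cd93 had 0.179 and 0.176, Slco1a4 0.0842 and 0.0792, and Tek 0.302 and 0.253.

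**Figure D4:**
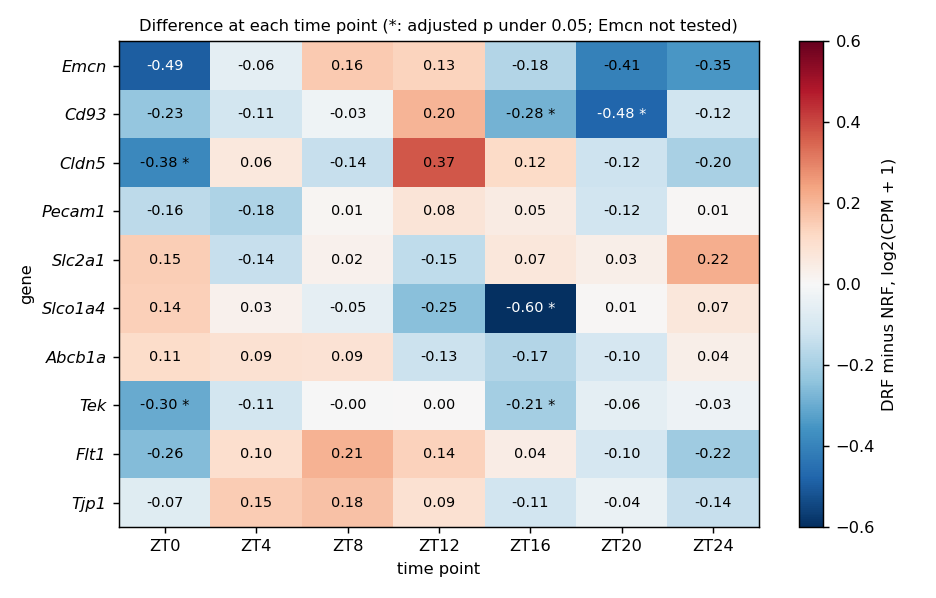
DRF minus NRF difference on log2(CPM + 1) (colour scale, blue lower in DRF and red higher) for each member (rows) at each time point (columns), from 4 mice per group, with a star where the limma adjusted p was under 0.05 and no test for Emcn. The 6 starred cells are all blue, and the largest, -0.60 for Slco1a4 at ZT16, rests on 2 libraries.

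ZT24 and ZT0 are the same hour of the day in different mice. In DRF, 1 of 10 members differed between them, where 0.468% of transcripts were called. That member was Tek, with 12.97, 13.9, 15.02 and 15.1 CPM at ZT24 and 9.29 to 11.9 CPM at ZT0 (0.37 ± 0.07, adjusted p = 0.00575). The call was lost without replicate 1 (0.0804), 3 (0.238) and 4 (0.0993). In NRF limma called 0 of 10, where 2.12% of transcripts were called, with 3 at an unadjusted p under 0.05, and limma-voom called 0. Emcn differed by -0.06 ± 0.09 in DRF (adjusted p = 0.812) and -0.20 ± 0.09 in NRF (0.203). So the low DRF levels of Tek at ZT0 did not recur in the DRF mice of ZT24. Emcn was low in both groups, but both entered the peak times that chose it. Its low levels there are a description and not a separate repeat.

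Other endothelial genes were read at the same hours. The mean log2(CPM + 1) of 20 other endothelial genes was 3.39 to 3.44 in the 4 DRF mice at ZT0 and 3.56 to 3.61 in the 4 NRF mice, with no overlap. At ZT24 it was 3.47 to 3.60 in DRF and 3.51 to 3.65 in NRF, which overlap. Of these 20 genes, 18 had a negative difference at ZT0 and 4 were called lower, where 2.09% of transcripts were, and the median was -0.18 against -0.16 for the 9 members other than Emcn and -0.0014 for all transcripts. Their mean as a covariate left differences at ZT0 of -0.18 for Cldn5 (adjusted p = 0.366) and -0.25 for Tek (0.0548), and -0.40 for Cd93 at ZT20 (0.00550). With it, the rhythm difference of Flt1 had adjusted p = 0.0808 and that of Tjp1 0.0589. The mean level had 0.0598 for Tek and 0.0186 for Emcn. The part of the amount of vessel tissue in these differences was not tested.

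Over the day, 6 of the 20 were called lower in DRF and 0 higher, with 18 negative. Rhythm was called for 8 of 20 in NRF and 2 in DRF, where 31.0% and 1.08% of all transcripts were called. It differed between the regimens for 3, where 10.9% were called. Eng, a TGF-beta co-receptor, peaked at ZT18.4 in NRF and ZT9.77 in DRF (rhythm difference, limma, adjusted p = 0.0104) and was lower in DRF (-0.10 ± 0.03, adjusted p = 0.0306). Cdh5, the VE-cadherin of adherens junctions, differed in rhythm too (adjusted p = 0.0299). Kdr, VEGF receptor 2, was rhythmic in NRF (adjusted p = 1.74e-05, amplitude 0.31 ± 0.05) and Ly6c1, a surface protein of capillary endothelium, in both regimens (3.90e-04 in NRF and 2.04e-06 in DRF).

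Of 10 further junction and vesicle genes, 8 were rhythmic in NRF and 1 in DRF, and 1 differed in rhythm. That gene was Plvap, the diaphragm protein of fenestrated capillaries, with an amplitude of 0.35 ± 0.05 in NRF and 0.09 ± 0.05 in DRF (adjusted p = 0.00824). Mfsd2a, the lipid carrier that holds back vesicle traffic, was rhythmic in NRF (3.95e-07) and DRF (1.62e-06) and higher in DRF by 0.16 ± 0.04 (adjusted p = 0.00726). Of 10 other barrier transporters, 7 were rhythmic in NRF and 1 in DRF, and 4 differed. Slc7a5, the large neutral amino acid transporter, had an amplitude of 0.28 ± 0.03 in NRF and 0.02 ± 0.03 in DRF (rhythm difference adjusted p = 5.91e-06). At ZT0 it was higher in DRF by 0.38 ± 0.06 (adjusted p = 1.28e-04). Tfrc, the transferrin receptor, differed in rhythm as well (0.00776).

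Ligands and receptors that act on the vessel wall were examined next. Of 12 VEGF and angiopoietin genes, 6 were rhythmic in NRF and 1 differed in rhythm, Vegfa, the main VEGF ligand (adjusted p = 8.64e-05). It peaked at ZT21.6 in NRF and ZT14.8 in DRF, and at ZT0 it was lower in DRF (-0.34 ± 0.06, adjusted p = 4.85e-04). Of 15 genes of barrier Wnt signalling, 5 were rhythmic in NRF and 2 in DRF, and 5 differed in rhythm. Among these were Wnt7a, a neural Wnt ligand of the barrier (8.62e-04), and its co-receptor component Reck (0.00707), with peaks at ZT22.5 and ZT10.2 in NRF and ZT8.78 and ZT0.359 in DRF. Axin2, a target gene of the pathway, was rhythmic in NRF (1.19e-06). Of all transcripts, 31.0% were called rhythmic in NRF, 1.08% in DRF and 10.9% in the rhythm difference. Against these shares, the 5 of 15 Wnt genes rhythmic in NRF are near the background. So are the 3 of 12 mural, 2 of 7 astrocyte, 2 of 7 microglial and 2 of 6 neuronal genes given next. The 8 of 20 other endothelial genes rhythmic in NRF are not far above it. Near the share of the rhythm difference are 3 of 20 endothelial, 1 of 10 junction and vesicle and 1 of 12 VEGF and angiopoietin genes. The same holds for the 1 choroid plexus, 1 microglial and 1 astrocyte gene that differed. Such counts say nothing particular about those lists. The lists were chosen with earlier results known.

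Markers of other cells in the tissue were read the same way. Over the day, 901 of all 16239 transcripts were called higher in DRF and 791 lower, and at ZT4 451 were called higher. Of 12 mural cell genes, 3 were rhythmic in NRF and 1 in DRF, Notch3 (adjusted p = 0.00628), and 1 each was called higher and lower over the day. All 5 red blood cell genes were called higher in DRF over the day and at ZT4. Their summed level was 218 to 2378 CPM in DRF mice (median 441) and 193 to 526 CPM in NRF mice (median 313). At ZT4 it was 488 to 2378 CPM in DRF and 234 to 301 CPM in NRF, and at ZT0 338 to 954 and 299.8 to 461 CPM. The globin genes share reads among near-identical copies. The sums of the regimens were apart at ZT4 and overlapped at ZT0. The median DRF minus NRF difference of the 5 genes on log2(CPM + 1) was 1.68 at ZT4 and 0.79 at ZT0, and that of the 9 members other than Emcn was 0.03 and -0.16. The part of residual blood in the members' differences was not tested.

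Of 6 fibroblast genes of the meninges, 1 was rhythmic in NRF, and of 6 choroid plexus and ependymal genes, 1 differed in rhythm. Summed choroid plexus markers stayed low, from 25.6 to 51.5 CPM, with Ttr between 0.198 and 13.9 CPM. Of 7 microglial genes, 2 were rhythmic in NRF, 1 differed in rhythm and 2 were lower over the day in DRF. Astrocyte genes counted 2 of 7 rhythmic in NRF, 1 different, 1 higher and 1 lower. Neuronal genes counted 2 of 6 rhythmic, 1 higher and 2 lower, and oligodendrocyte genes 3 of 6 rhythmic, 2 different and 3 lower. Of 8 genes that mark nuclei of the anterior hypothalamus, 1 was rhythmic in NRF.

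**Figure D5:**
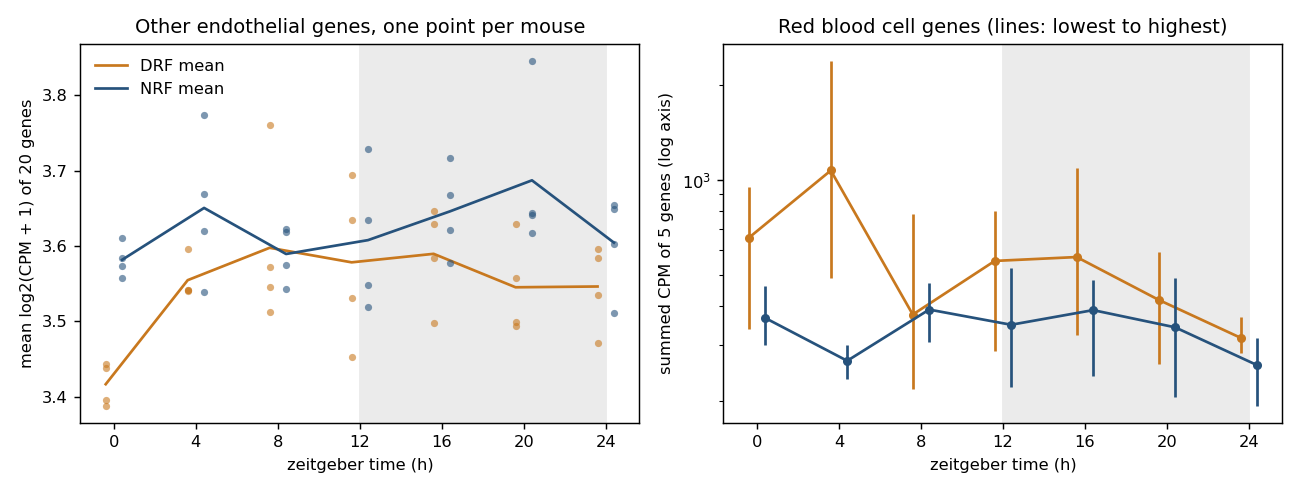
Left, mean log2(CPM + 1) of the 20 other endothelial genes (y axis, not from 0) against zeitgeber time in hours, with 1 point per mouse and lines through group means. Right, summed CPM of the 5 red blood cell genes on a log axis, with points at group means of 4 mice and vertical lines from the lowest to the highest mouse, in DRF (orange) and NRF (blue). The DRF mice at ZT0 lie below all NRF mice of that hour on the left, and DRF ZT4 reaches 2378 CPM on the right.

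The genes outside the set whose 14 group means followed Emcn most closely were Zfp14 (Pearson r = 0.885), Chchd3 (0.878), Ptcd2 (0.875), Med21 (0.870) and Nrbf2 (0.845). The points share libraries and the choice of Emcn, so the values are a description. Over the 56 single mice the same 5 genes had r between 0.410 and 0.606, and the highest were other genes, Apln (0.647) and Kcnj10 (0.646). The other members followed Emcn loosely, with r over group means from -0.11 for Slc2a1 to 0.38 for Flt1 and 0.38 for Cd93. None of the 5 genes most like it is a vessel marker in the lists used here.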

How the data were processed

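Anterior hypothalamus was sequenced from 4 mice in each of 14 groups. The authors used SOAPnuke for cleaning, HISAT2 for mapping to GRCm38.p6, Bowtie2 for alignment to coding genes and RSEM for quantification, and after TMM normalization in edgeR they deposited values named TPM. From the values, the deposited score is log2 of CPM plus 1 divided by gene length and rescaled, so it is compressed. This was undone with GENCODE vM21 exon lengths. All 10 members used the annotation length, and 9 resolved into whole reads (Cd93 in 94.6% of mice, the other 8 in every mouse).

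Rhythm was tested within a regimen on the deposited values (periods of 20 to 28 h) with JTK_CYCLE and Lomb-Scargle, written out for this work since MetaCycle was not used here, over 16245 transcripts whose value reached 1 in 80% or more of the mice. Amplitudes, rhythm differences and contrasts used log2(CPM + 1) in limma 3.58.1 (R 4.3.3) over all 56 mice and 16239 transcripts, with p-values adjusted by Benjamini-Hochberg over all transcripts and a threshold of 0.05. Alternatives were other pseudocounts, scalings and filters, removal of library trends, left-out mice, a replicate block and an endothelial covariate. Of these steps, the rhythm tests within a regimen, the rhythm difference and the mean level were tested on simulated data. The members, lists and tests were chosen with earlier results of these data known. All members were named, with up to 2 genes per other list by the smallest p of the rhythm difference and up to 2 by that of rhythm in NRF, and the 5 genes most like Emcn. The E-box, D-box, ROR and ETS letters were searched in RefSeq promoters, of which 8 of 10 members matched by symbol. The closest pair of libraries of a group still differed by 3.05 times the counting variance, so none was counted as a duplicate.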

Additional observations from a re-analysis of the deposited data

Results flagged for a closer look

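Rhythm differed between the regimens by the limma interaction test for Slco1a4 (adjusted p = 0.00570), Cd93 (0.00707), Flt1 (0.0169), Tjp1 (0.0278) and Abcb1a (0.0295). The study had picked Tjp1 for this contrast on the same libraries.

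In groups of 4 mice, a single mouse lay far from the others by Dixon's ratio in 6 of 140 groups of the members (4.29%), where chance gives about 5%. Cldn5 was concerned 3 times: DRF ZT4 replicate 4 had 28.9 CPM against 31.3 to 31.6 CPM in the others, NRF ZT12 replicate 1 had 15.2 CPM against 12.4 to 12.7 CPM, and NRF ZT24 replicate 2 had 30.7 CPM against 26.4 to 27.0 CPM. Pecam1 had 20.04 CPM in NRF ZT24 replicate 3 against 21.7 to 21.9 CPM. Flt1 had 54.7 CPM in DRF ZT24 replicate 4 against 42.6 to 44.2 CPM. Tjp1 had 91.1 CPM in NRF ZT8 replicate 4 against 92.8 to 93.1 CPM.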

How the results depend on the processing

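No called difference of a member in mean level, at single hours or between ZT24 and ZT0 changed sign under the alternatives run. The rhythm difference has no single sign and was not checked in this way. The DRF peak of Slco1a4 moved from ZT2.52 to as far as ZT17.9 with mice left out. With each replicate number left out in turn, members called ranged from 1 to 2 for rhythm in DRF, from 0 to 4 for the rhythm difference, from 1 to 3 for the mean level, from 0 to 7 for the single hours and from 0 to 2 for ZT24 against ZT0. Without replicate 3, limma called 0 members in the rhythm difference (6 at an unadjusted p under 0.05) and 0 at single hours (13 of 63 unadjusted). Rhythm in DRF was called for 1 member without ZT16 and for 4 with library trends removed, and ZT24 against ZT0 for 0 with the endothelial covariate. Rhythm in NRF was called for 7 to 9 members, with Tek called in 4 of 11 alternatives, Pecam1 in 10 and the other 7 members in all 11. With trends removed the rhythm difference of Cldn5 passed (adjusted p = 0.0446), and with the endothelial covariate that of Slc2a1 (0.0289). The cause of these changes was not tested.

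Same-numbered mice of the regimens did not deviate together (correlation -0.53 to 0.25, median -0.01 over 28 pairs), so the numbers do not pair them. With the replicate block, 5 rhythm differences, 3 mean levels, 6 single hours and 1 ZT24 difference were called, as without it, and the limma cosine test called 8 members in NRF and 2 in DRF.

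Over all transcripts, rhythm calls in NRF fell from 5030 to between 2642 and 3190 without replicates 1, 2 or 3. In DRF they moved from 176 to between 62 and 93 with a replicate left out, 113 without ZT16, 353 with trends removed, 653 by the limma cosine and 635 with the block. Rhythm differences moved from 1768 to 430, 764 and 918 without replicates 3, 4 and 1, and to 2762 with trends removed. Mean level calls moved from 1692 to 388, 727 and 893 without replicates 3, 4 and 1, and to 2606 with the endothelial covariate. Calls at single hours moved from 5091 to 334 and 769 without replicates 3 and 4, and to 3138 without ZT16. Calls of ZT24 against ZT0 moved from 421 to between 0 and 92 with a replicate left out and to 1099 without ZT16. Emcn had as few as 153 reads in a mouse, which limits the precision of its values.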
